A study of Rattus norvegicus with 7 samples.

Results

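Marker genes of the hippocampal subfields were followed in hippocampus and hypothalamus of rats whose food carried docosahexaenoic acid (DHA), a long polyunsaturated fatty acid of brain membranes. The 7 genes named were Neurod6, Wfs1, Prox1, Dsp, Pcp4, C1ql2 and C1ql3, found by symbol in 2 tables of FPKM (fragments scaled to transcript length and library total, a level per transcript length). The 6 genes other than Dsp had a row in both tables, among 15805 symbols shared by the tables, and Dsp was not analysed here. Male Sprague Dawley rats, 2 months old when assigned, had eaten the DHA diet for 6 weeks. There were 4 DHA hippocampus libraries and 3 from DHA hypothalamus, 7 in all. Libraries of chow-fed rats were not analysed here, so nothing below is an effect of the diet. Whether hippocampus and hypothalamus came from the same animals is not stated, and neither is whether replicates of a tissue were separate animals, so the spread between them may be technical.

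The hippocampus is a chain of subfields whose excitatory neurons carry different genes. Granule cells of the dentate gyrus send mossy fibres to pyramidal cells of CA3, which project to CA1, with the small CA2 field between them. Prox1 encodes the transcription factor that sets granule cell identity, C1ql2 and C1ql3 encode secreted C1q-like proteins of mossy fibre and other excitatory synapses, and Dsp encodes desmoplakin. Neurod6 encodes a basic helix-loop-helix factor of pyramidal neurons, Wfs1 encodes wolframin, a membrane protein of the endoplasmic reticulum abundant in CA1, and Pcp4 encodes a small calmodulin-binding protein used to mark CA2.

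Of the 6 genes, Neurod6, Wfs1, Prox1 and C1ql3 were higher in hippocampus, Pcp4 was higher in hypothalamus, and the tissues overlapped for C1ql2. A gene was called higher when all libraries of one tissue exceeded those of the other and mean log2(value + 1) differed by at least 1. That difference is 2-fold in value + 1, not in the value itself. By this rule the hippocampus was higher for 14.5% of the 10736 symbols compared and the hypothalamus for 13.4%, beside 4 and 1 of the 6 marker genes. Lack of overlap with no fold required held for 28.2% and 24.4% of symbols and for the same numbers of marker genes, 4 and 1. Each tissue came from its own table, so tissue and table cannot be told apart and no test was made between them. In bulk tissue, fewer cells of a type and less RNA per cell cannot be told apart either. The labels themselves held up: all 8 hypothalamic marker genes examined, among them Oxt and Avp, were higher in hypothalamus, and their summed level was 4.86 to 11.8 FPKM in hippocampus against 5742 to 8167 FPKM in hypothalamus. The hippocampal part of the set's name went with the tissue direction of 4 genes and not with that of Pcp4. The level of C1ql2 did not separate the tissues. Libraries of whole tissue hold no values by subfield, so whether a gene marks a subfield was not tested.

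**Figure D1:**
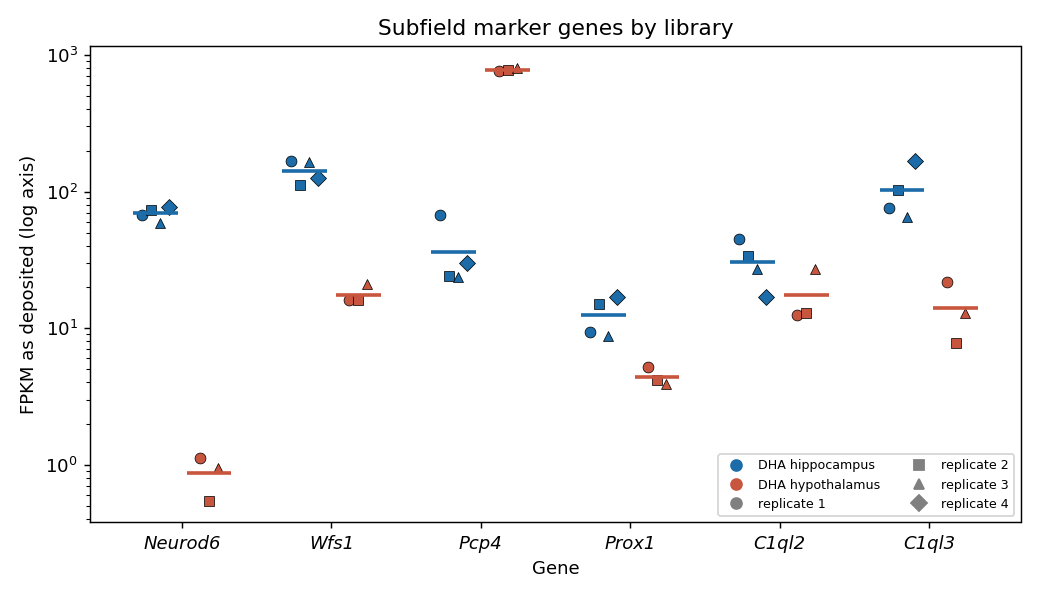
FPKM of the 6 marker genes in each library, on a log axis, with points for 4 hippocampus (blue) and 3 hypothalamus (red) libraries, shapes for replicates and bars for the mean. Pcp4 is the gene with hypothalamus on top, at 761.7 to 810.4 FPKM, and the points of C1ql2 overlap between the tissues.

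Promoters are shown for the genes at both ends of the tissue comparison, Neurod6 and Pcp4, and for C1ql3. They are RefSeq windows of the rat assembly GRCr8, from 250 bases before to 50 bases after the annotated start, whereas the expression values rest on build rn5. Such a window was found for 5 of the 6 genes analysed and for Dsp. Capitals mark 3 motifs, none of which overlapped another. The first is the E-box CAGATG, a NeuroD-type site. On the other strand it reads CATCTG. The second is the E-box CAGCTG, which is its own complement. The third is TATAAA. Its other strand reads TTTATA. The Neurod6 window is chr4:86180106-86180405 on the minus strand, the Pcp4 window chr11:49269936-49270235 on the plus strand and the C1ql3 window chr17:81038195-81038494 on the minus strand.
Neurod6: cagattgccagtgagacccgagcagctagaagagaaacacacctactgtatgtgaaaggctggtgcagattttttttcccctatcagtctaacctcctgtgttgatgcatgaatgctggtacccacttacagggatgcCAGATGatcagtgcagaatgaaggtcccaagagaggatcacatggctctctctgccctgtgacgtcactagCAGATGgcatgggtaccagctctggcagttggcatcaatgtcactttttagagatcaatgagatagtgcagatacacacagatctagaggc
Pcp4: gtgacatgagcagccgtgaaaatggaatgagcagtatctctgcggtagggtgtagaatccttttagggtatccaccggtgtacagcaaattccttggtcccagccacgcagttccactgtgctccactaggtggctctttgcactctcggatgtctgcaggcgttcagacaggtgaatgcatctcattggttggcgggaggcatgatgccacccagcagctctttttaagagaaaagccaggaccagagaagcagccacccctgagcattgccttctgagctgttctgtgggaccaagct
C1ql3: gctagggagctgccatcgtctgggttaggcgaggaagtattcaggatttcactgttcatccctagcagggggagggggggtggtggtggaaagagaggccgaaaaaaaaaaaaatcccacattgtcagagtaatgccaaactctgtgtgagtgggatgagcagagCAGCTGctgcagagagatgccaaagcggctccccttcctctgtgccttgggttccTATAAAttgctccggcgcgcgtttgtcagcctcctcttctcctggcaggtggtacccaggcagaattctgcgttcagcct
The Neurod6 promoter held CAGATG at 2 places, beginning at −112 and −41 from the start. The C1ql3 promoter held CAGCTG at −85 and TATAAA at −30, and that of Wfs1 held CAGCTG at −60. None of these letters occurred in the windows of Pcp4, C1ql2 or Dsp. Of all 33469 promoter windows of the same length, 16.6% held CAGATG, 15.1% held CAGCTG and 14.2% held TATAAA on either strand. Such matches describe the sequence and show no binding. GC content was 48.3% for Neurod6, 53.3% for Pcp4, 54.7% for C1ql3, 64.7% for Wfs1 and 70.3% for C1ql2.

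Among the pyramidal cell genes, Neurod6 separated the tissues most. It read 67.5, 73.3, 59.0 and 77.0 FPKM in hippocampus replicates 1 to 4 and 1.13, 0.546 and 0.949 FPKM in hypothalamus replicates 1 to 3. All hippocampus libraries were close together and far above all hypothalamus libraries. After rescaling each library to a sum of 1000000 over the shared symbols, the scale used for every difference between tissues here, hippocampus exceeded hypothalamus by 6.06 on the log2(value + 1) scale. Only 11 of the 10736 symbols, Neurod6 included, had a difference as high. A further hippocampal locus with the symbol Neurod6 read 1.97, 5.62, 5.98 and 19.3 FPKM, and with the loci summed the difference was 6.17. Neurod6 is also a gene of neocortex, which borders the hippocampus. None of 3 neocortical genes was called, although Fezf2 did not overlap between the tissues, with a difference of 0.86 in the direction of Neurod6. Rorb went the other way (−0.30) and overlapped between the tissues after rescaling, though not in FPKM as deposited. Their sum was 17.8 to 27.2 FPKM in hippocampus and 18.4 to 20.6 FPKM in hypothalamus, none was at 0 in all libraries, and their part in the level of Neurod6 was not tested.

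Wfs1, the CA1 gene, was the most abundant of the 6 in hippocampus. Its hippocampus libraries read 169, 111, 163 and 125 FPKM, and its hypothalamus libraries read 16.0, 16.0 and 20.9 FPKM. Replicates 1 and 3 of hippocampus were the high pair, and the tissues did not overlap. The means were 142 ± 28.3 FPKM (SD, n = 4) and 17.6 ± 2.84 FPKM (SD, n = 3), a difference of 3.27 on the log2 scale. Choroid plexus genes shared with Wfs1 the low level of hippocampus replicate 2. Ttr, the most abundant of them, read 4651, 31.9, 5771 and 1967 FPKM in replicates 1 to 4. The summed level of the 7 choroid plexus genes found ranged from 35.2 to 5998 FPKM over hippocampus libraries and from 34.1 to 70.8 FPKM over hypothalamus libraries, with Otx2 at 0 throughout. All 6 others were lowest in hippocampus replicate 2 and highest in replicate 3, whereas Wfs1 was highest in replicate 1. Their part in the level of Wfs1 was not tested.

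Pcp4 was the exception. It read 67.8, 24.1, 23.6 and 30.2 FPKM in hippocampus and 761.7, 771.7 and 810.4 FPKM in hypothalamus. The 3 hypothalamus libraries lay close together, with a coefficient of variation of 3.29%, while hippocampus replicate 1 stood above the other 3. Hippocampus minus hypothalamus was −4.26 on the log2 scale, and 48 of the 10736 symbols, Pcp4 included, were as low or lower. Without hippocampus replicate 1 the difference was −4.61. Pcp4 had 1 locus in each table, so the choice of a locus did not enter. Marker genes of tissues that border the dissections and may also carry Pcp4 were higher in hypothalamus in part. Of 4 thalamic genes, Tcf7l2, Lef1 and Gbx2 were higher there, although Lef1 lost the call under median-of-ratios scaling, and the list summed to 24.6 to 59.8 FPKM in hypothalamus and 18.9 to 33.4 FPKM in hippocampus. Of 5 striatal genes, Rgs9 was higher, and that list summed to 58.7 to 119.8 FPKM against 40.3 to 52.1 FPKM. Drd1 of the striatal list went the other way, at 3.78 to 5.28 FPKM in hippocampus and 2.42 to 2.49 FPKM in hypothalamus. Its difference of 0.99 fell just short of a call, although its rescaled means differed 2.17-fold. After rescaling over single-locus symbols, Drd1 was called higher in hippocampus. No gene of either list was at 0 in all libraries, and their part in the level of Pcp4 was not tested.

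Symbols that begin with Rpl or Rps and a digit, here called ribosomal protein symbols, were set beside the marker genes. Chosen by name, they include relatives such as Rpl22l1 and can include kinase genes whose symbols begin the same way. Tissue and table cannot be told apart for them either. Of the 77 ribosomal protein symbols, 14 were called higher in hippocampus and 19 in hypothalamus, 42.9% in all, against 27.9% of all compared symbols. Their differences ran from −4.19 for Rpl10a to 6.24 for Rpl22l1, with a median of 0.13. Among the 63 with a single locus in both tables, the range was −4.07 for Rpl29 to 6.24. The differences of Neurod6, Wfs1, Prox1, C1ql2 and C1ql3 lie inside the range of all 77, and that of Pcp4 is just outside it. How the tables' quantification contributes to the level of any marker gene was not tested.

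**Figure D2:**
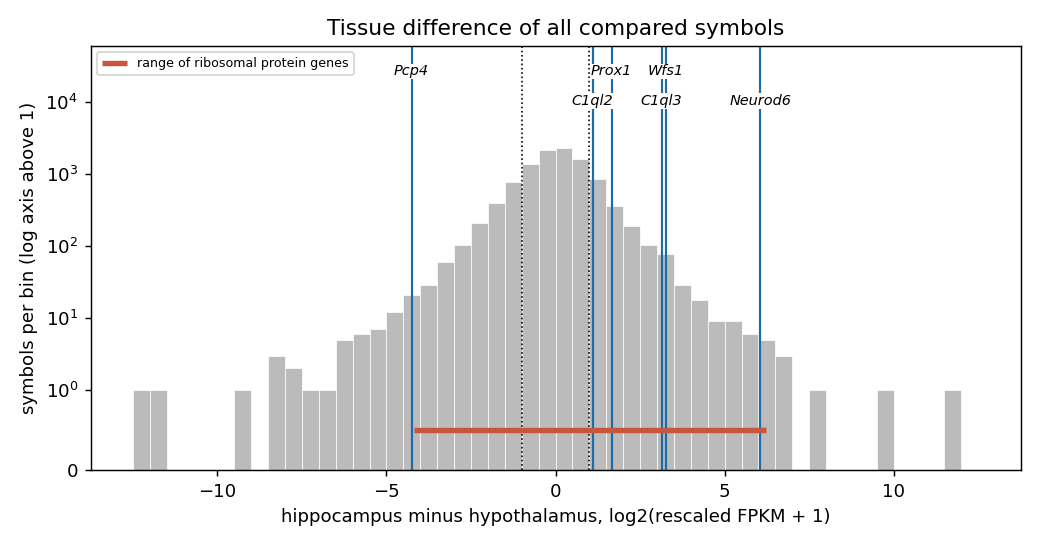
Hippocampus minus hypothalamus on the log2(rescaled FPKM + 1) scale for 10736 symbols, in bins of 0.5, with symbols per bin on an axis that is logarithmic above 1. Blue lines mark the 6 genes from Pcp4 at −4.26 to Neurod6 at 6.06, and dotted lines a 2-fold difference. The red bar marks the range of the ribosomal protein symbols, which were chosen by name.

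The dentate genes separated the tissues less than Neurod6 did. Prox1 read 9.41, 15.03, 8.80 and 17.0 FPKM in hippocampus and 5.17, 4.202 and 3.90 FPKM in hypothalamus. Hippocampus replicates 2 and 4 were high, replicates 1 and 3 low, and the lowest of them was above every hypothalamus library. The difference was 1.66 on the log2 scale, and 6.36% of compared symbols were as high. A further hippocampal locus with the symbol Prox1 read 0, 3.05, 0.928 and 4.28 FPKM, again highest in replicates 2 and 4. Reads of Prox1 and of a gene on the opposite strand cannot be told apart here, since strand assignment is not given in the sources used here. Prox1 is also made by lymphatic endothelium, by some interneurons and by oligodendrocyte precursors. Of 4 endothelial genes compared, Flt1 and Cldn5 were called higher in hippocampus, Cldn5 without the call in FPKM as deposited, and the lymphatic gene Lyve1 higher in hypothalamus. That list summed to 79.3 to 125.8 FPKM in hippocampus and 50.9 to 72.1 FPKM in hypothalamus. Of 5 interneuron genes, Gad2 was called higher in hypothalamus and none in hippocampus. Short of 2-fold, Gad1 (−0.56) and Sst (−0.67) lay in the direction of Gad2 and Vip (0.79) in that of Prox1, each without overlap after rescaling. The list summed to 314.9 to 444.1 FPKM in hippocampus and 722.2 to 857.3 FPKM in hypothalamus. The 2 precursor genes found, Pdgfra and Cspg4, summed to 14.3 to 19.5 FPKM in hippocampus and 17.3 to 26.8 FPKM in hypothalamus. None of the 3 lists had a gene at 0 in all libraries, and their part in the level of Prox1 was not tested.

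C1ql3 read 75.5, 102.4, 64.8 and 168.0 FPKM in hippocampus and 21.8, 7.74 and 12.9 FPKM in hypothalamus. Replicate 4 was the highest hippocampus library, and all 4 lay above hypothalamus replicate 1, the highest there. The difference was 3.14, and 1.18% of compared symbols were as high. C1ql2 read 45.1, 33.5, 26.9 and 17.0 FPKM in hippocampus and 12.4, 12.9 and 27.1 FPKM in hypothalamus. Hypothalamus replicate 3 lay above hippocampus replicates 3 and 4, so the tissues overlapped, with a difference of means of 1.10. Leaving out hippocampus replicate 4 or hypothalamus replicate 3 ended the overlap after rescaling and gave 1.35 and 1.43.

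Within hippocampus, the order of levels per transcript length was Wfs1, C1ql3, Neurod6, Pcp4, C1ql2 and Prox1. The libraries of Wfs1 (111 to 169 FPKM) and C1ql3 (64.8 to 168.0) overlapped. So did those of C1ql3 and Neurod6 (59.0 to 77.0), of Neurod6 and Pcp4 (23.6 to 67.8), and of Pcp4 and C1ql2 (17.0 to 45.1). The lowest library of C1ql2 (16.999 FPKM) and the highest of Prox1 (16.997 FPKM), both replicate 4, were almost equal. Within libraries, C1ql3 was above Neurod6 and C1ql2 above Prox1 in all 4, while the other neighbours changed places in at least 1 library. In hypothalamus the order was Pcp4, Wfs1, C1ql2, C1ql3, Prox1 and Neurod6. There Pcp4 stood alone, Wfs1 (16.0 to 20.9 FPKM), C1ql2 (12.4 to 27.1) and C1ql3 (7.74 to 21.8) overlapped, and Prox1 (3.90 to 5.17) and Neurod6 (0.546 to 1.13) were each separate.

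Ratios of genes within a library do not depend on how libraries were scaled. The ratio of Pcp4 to Wfs1 was 0.144 to 0.402 in hippocampus and 38.8 to 48.3 in hypothalamus. Prox1 to Neurod6 was 0.139 to 0.221 in hippocampus and 4.11 to 7.70 in hypothalamus, so the dentate factor was below the pyramidal one in every hippocampus library and above it in every hypothalamus library. C1ql3 to C1ql2 was 1.68, 3.06, 2.41 and 9.88 in hippocampus replicates 1 to 4 and 1.75, 0.598 and 0.476 in hypothalamus replicates 1 to 3. The ratio of these 2 related genes thus differed 5.90-fold between the lowest and the highest hippocampus library. C1ql3 to Prox1 was steadier, at 6.81 to 9.88 in hippocampus.

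The dentate genes Prox1 and C1ql3 had the same order of hippocampus libraries, and C1ql2 had another. Neurod6, Prox1 and C1ql3 were all highest in replicate 4, followed by 2, 1 and 3, while C1ql2 ran in the order 1, 2, 3 and 4. Wfs1 followed the order 1, 3, 4 and 2, and Pcp4 the order 1, 4, 2 and 3. Other symbols shared these orders. Of 10660 compared symbols with 4 different values, 574 (5.38%) had the order of Prox1 and 1002 (9.40%) that of C1ql2. The orders of Wfs1 and Pcp4 were those of 2.69% and 2.02%, and the most frequent of the 24 orders, 4, 2, 3 and 1, was that of 1739 symbols (16.3%). The SD of log2(FPKM + 1) over the 4 libraries was 0.16 for Neurod6, 0.29 for Wfs1, 0.44 for Prox1, 0.57 for C1ql2, 0.60 for C1ql3 and 0.70 for Pcp4. The median of the 6 was 0.51, and that of the 10309 symbols averaging 1 FPKM or more in hippocampus was 0.23. Of all symbols, 94.1%, 94.8% and 96.1% had a smaller SD than C1ql2, C1ql3 and Pcp4. In hypothalamus, C1ql2 (0.60) and C1ql3 (0.69) varied most, Prox1 (0.17) and Wfs1 (0.21) varied less, and Pcp4 (0.05) had a larger SD than 3.02% of symbols.

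**Figure D3:**
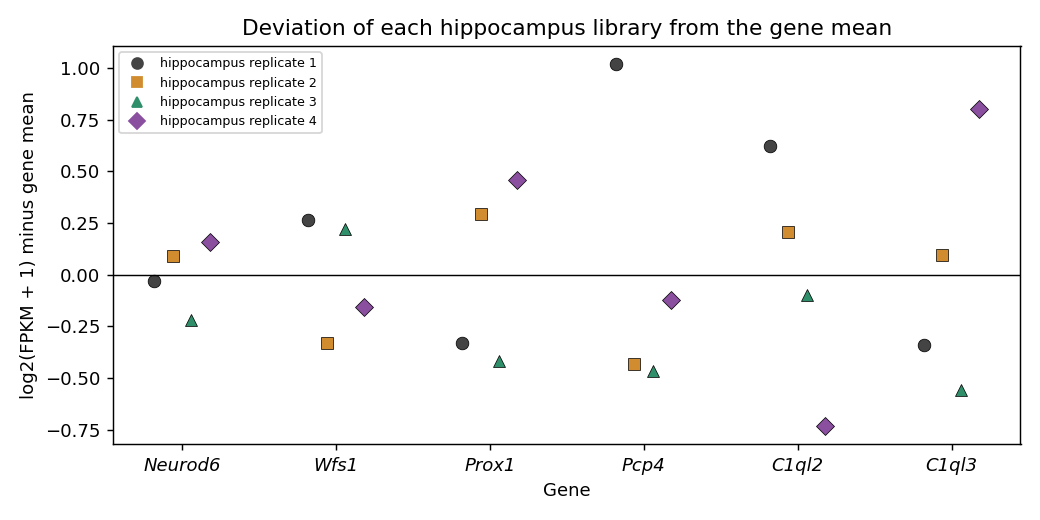
Deviation of each of the 4 hippocampus libraries from the mean of a gene, in log2(FPKM + 1), with a marker for each replicate. Replicate 4 is the highest point for Prox1 and C1ql3 and the lowest for C1ql2, and replicate 1 stands above the rest for Pcp4.

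An index of dentate against pyramidal genes was formed in each hippocampus library from the mean log2(FPKM + 1) of Prox1 and C1ql2 minus that of Neurod6 and Wfs1. It was −2.30, −1.96, −2.59 and −2.46 in replicates 1 to 4, a mean of −2.33 ± 0.27 (SD, n = 4). Which library came out highest depended on the genes. With Prox1 alone for the dentate gyrus, replicate 4 was highest (−2.46), and with C1ql2 alone replicate 4 was lowest (−2.46) and replicate 1 highest (−1.23).

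Other genes used as subfield markers were examined from lists. Of 27 such genes found in both tables beside the 6, 22 averaged 1 FPKM or more in either tissue. Hippocampus was higher for 9 of the 22 (40.9%, against 14.5% of all compared symbols) and hypothalamus for 3 (13.6%, near the 13.4% of all). Their median difference was 0.70, against 0.05 over all compared symbols. Of 5 further dentate genes, Rfx3 (a transcription factor), Plk5 (a polo-like kinase) and Trpc6 (a cation channel) were higher in hippocampus, Trpc6 without the call when FPKM were used as deposited. Calb1 (calbindin) went the other way, with 28.7 to 31.5 FPKM in hippocampus and 47.5 to 98.8 FPKM in hypothalamus. The tissues did not overlap, the difference of −0.74 fell short of 2-fold, and Calb1 was called higher in hypothalamus with FPKM as deposited (−1.02). Rfx3 read 7.03, 13.6, 8.14 and 14.5 FPKM in hippocampus and 1.34 to 1.83 FPKM in hypothalamus. Replicates 2 and 4 were thus high for Rfx3, as they were for Prox1. Plk5 read 11.9, 6.21, 4.13 and 4.81 FPKM in hippocampus and 0.650 to 1.25 FPKM in hypothalamus, and its highest library was replicate 1, as for C1ql2.

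Among further CA1 genes, Mpped1 was higher in hippocampus, at 85.9 to 100.2 FPKM against 12.98 to 16.4 FPKM. Of 5 further CA2 genes, Rgs14 (a regulator of G protein signalling), Ntf3 (neurotrophin-3) and Necab2 were higher in hippocampus, Necab2 without the call in FPKM as deposited. Amigo2, a cell adhesion gene, was higher in hypothalamus, as Pcp4 was. Rgs14 read 29.5 to 38.7 FPKM in hippocampus and 3.23 to 4.99 FPKM in hypothalamus, whereas Amigo2 read 8.99 to 10.3 FPKM and 32.3 to 39.2 FPKM. Genes used to mark CA2 therefore differed in direction. Of 5 CA3 genes, St18 was called higher in hippocampus, and not so under 3 of the 5 scalings. Of 4 mossy cell genes, Calb2 and Drd2 were higher in hypothalamus, and Calcrl (0.62) and Ajap1 (−0.25) overlapped after rescaling. Calb2 (calretinin) read 8.29 to 10.0 FPKM in hippocampus and 103.9 to 146.2 FPKM in hypothalamus. Fibcd1 was listed at 0 in all libraries. General genes of forebrain excitatory neurons were clearer: Slc17a7, Neurod2, Tbr1 and Nrgn, all 4 found beside Neurod6, were higher in hippocampus under each scaling.

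The relatives and partners of the markers were taken from further lists, of which 29 genes could be compared. Hippocampus was higher for 9 of the 29 (31.0%, against 14.5% of all compared symbols) and hypothalamus for 5 (17.2%, against 13.4%), and their median difference was 0.07. NeuroD factors act as pairs with E proteins. Neurod1 and Neurod2 were higher in hippocampus by 3.43 and 5.25, and so was the E protein gene Tcf4, by 1.67. Tcf3 was lower in hippocampus (−1.12) and Tcf12 overlapped between the tissues after rescaling, though not in FPKM as deposited. Neurod2 read 43.1, 23.3, 21.4 and 18.9 FPKM in hippocampus and at most 0.491 FPKM in hypothalamus, with replicate 1 on top, where Neurod6 had replicate 4 on top.

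Wolframin acts in the stress response of the endoplasmic reticulum, and none of 7 genes of that response was called in either direction. The hippocampal mean of Hspa5, its main chaperone gene, was 182.6 ± 43.1 FPKM (SD, n = 4) and the hypothalamic mean 199.8 ± 44.6 FPKM (SD, n = 3), and Cisd2, which like Wfs1 is a Wolfram syndrome gene, read 31.8 ± 5.71 and 35.2 ± 17.7 FPKM. The tissues overlapped for both. After rescaling, Eif2ak3 (0.83) and Ddit3 (−0.57) did not overlap between the tissues, in opposite directions and short of 2-fold.

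Pcp4 binds calmodulin through an IQ motif, as neurogranin (Nrgn) and Gap43 do. Its closest relative Pcp4l1 was higher in hypothalamus too, at 9.91 to 17.1 FPKM in hippocampus and 46.1 to 84.0 FPKM in hypothalamus. Gap43 was also higher in hypothalamus (−1.13). Nrgn had the opposite direction, with 763.0, 352.3, 316.8 and 338.0 FPKM in hippocampus and 99.4 to 206.6 FPKM in hypothalamus. The calmodulin genes Calm2 and Calm3 were higher in hippocampus, by 2.42 and 1.67. Hippocampus replicate 1 was the highest library for both Nrgn and Pcp4.

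C1q-like proteins bind the receptor encoded by Adgrb3 (listed as Bai3), and C1ql2 and C1ql3 also link neurexin 3 to kainate receptors at mossy fibre synapses. The other family members went the opposite way from C1ql3. C1ql1 read 14.4, 9.40, 9.77 and 8.93 FPKM in hippocampus and 28.9, 58.4 and 55.7 FPKM in hypothalamus, and C1ql4 read at most 0.181 FPKM in hippocampus and 1.204 to 2.10 FPKM in hypothalamus. The family therefore divided, with C1ql3 higher in hippocampus, C1ql1 higher in hypothalamus and C1ql2 overlapping. C1ql4 was also higher in hypothalamus, but its level was low and averaged 1 FPKM or more only there. Bai3 and the kainate receptor gene Grik2 were higher in hippocampus by 1.04 and 1.03, and both missed the call under 3 of the 5 scalings. Nrxn3 and Grik4 overlapped between the tissues. Of the desmosome list, to which Dsp belongs, 3 genes could be compared. Pkp2 (plakophilin 2) was higher in hippocampus, at 11.8 to 16.7 FPKM against 2.32 to 3.13 FPKM, and Jup and Pkp1 were not called. Prox2, the relative of Prox1, stayed under 1 FPKM in every library, and Dcx, a gene of young neurons, overlapped between the tissues.

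**Figure D4:**
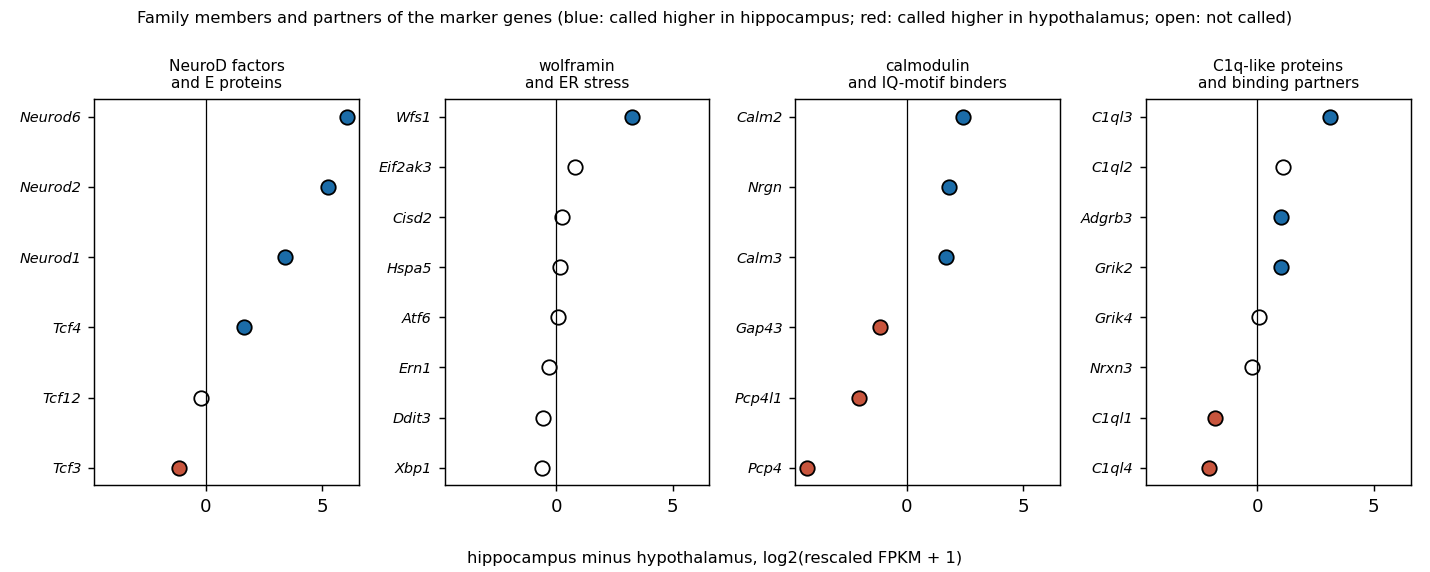
Hippocampus minus hypothalamus on the log2(rescaled FPKM + 1) scale for genes of 4 lists, blue where called higher in hippocampus, red where called higher in hypothalamus and open where not called. Wfs1 is the one filled point of its list, and the C1q-like genes run from C1ql4 at −2.05 to C1ql3 at 3.14.

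The genes with the most similar profile were sought among the 8468 symbols that averaged 5 FPKM or more in either tissue, by the root mean square difference of log2 profiles over the 7 libraries after centring each gene on its mean. Closest to Neurod6 were Mgarp (0.17), Sec61g (0.22) and Rpl22l1 (0.25), and closest to Wfs1 were Tomm7 (0.19), Hsd17b8 (0.20) and Baiap2 (0.21). Prox1 had the nearest match of all, Lrp1b (0.07), followed by Ptprr (0.10) and Trappc2 (0.13). The mean of Lrp1b over the 4 hippocampus libraries was 7.37 ± 2.32 FPKM (SD), and over the 3 from hypothalamus it was 2.24 ± 0.477 FPKM (SD). Closest to Pcp4 were the ribosomal protein genes Rpl29 (0.21) and Rpl14 (0.30) and the neurexophilin gene Nxph4 (0.30). The means of Rpl29 were 29.9 ± 13.3 FPKM (hippocampus) and 590.3 ± 54.5 FPKM (hypothalamus). Close to C1ql2 were Nudt16 (0.20) and Fjx1 (0.23), and closest to C1ql3 were Chp (0.25), Gria3 (0.30) and Naa38 (0.31). Libraries of a tissue share a table, so likeness over 7 libraries mostly follows the tissue difference. Pearson r was at least 0.9 with 1607 symbols (19.0%) for Neurod6 and with 183 (2.16%) for C1ql2, the lowest of the 6 genes.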

How the data were processed

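Poly-A RNA of 7 libraries was sequenced on an Illumina HiSeq 2000, per the labels' protocols. The authors deposited FPKM, in a separate table for each tissue. The submitters' processing notes name TopHat, TopHat2, Bowtie, Bowtie2, Cufflinks, Cuffdiff and build rn5. Versions, annotation, strand setting and normalization between libraries are not given in the sources used here. Of 10839 locus numbers in both tables, 58 carry the same symbol, so the tables were treated as separate runs and joined by symbol. FPKM carry no counts, so absolute depth is unknown and no counting interval was computed. Summed FPKM were 370020 to 391349 in hippocampus and 443335 to 471484 in hypothalamus.

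Where any library lacked the status OK, the locus was dropped (86 in hippocampus, 24 in hypothalamus), and each symbol was represented by its locus of highest mean. Symbols averaging 1 FPKM or more in either tissue were compared as log2(value + 1) after rescaling, which understates differences of low genes. No test was made, since all libraries of a table belong to 1 group. The rule for calls was run on simulated data in which only chosen genes differed between tissues. No table effect was added, and the spread was capped below the SD of Pcp4, C1ql2 and C1ql3 in hippocampus. The simulation therefore does not cover a table effect or genes that vary as much as these. The index was planned with Dsp and computed without it. Genes named are the 6 markers, genes of the lists and the 3 closest profiles per marker, and a few of these are counted but not reported here by name. Genes singled out among the ribosomal protein symbols, and the motifs, were chosen after values were seen. The marker genes and lists were chosen with earlier results of these data known. Python 3.11.15, pandas 2.3.3 and numpy 2.4.6 were used. Alternatives were other scalings, pseudocounts of 0.1 and 5, other filters and folds, loci summed and libraries left out.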

Additional observations from a re-analysis of the deposited data

Results flagged for a closer look

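In each of 56 genes of the marker, subfield and partner lists, the gap between the most extreme hippocampus library and its nearest neighbour was divided by the range of the 4 libraries. A ratio above Dixon's limit was found for 4 genes, where chance gives about 1 in 20. The share over all compared symbols was not computed, so the count is not a result about these genes. Pcp4 had a ratio of 0.85, with replicate 1 at 67.8 FPKM and the others at 23.6 to 30.2 FPKM, and on the log2(FPKM + 1) scale its ratio was 0.768, below the limit. Nrgn (0.92) and C1ql1 (0.846) were also highest in replicate 1, and C1ql1 was below the limit on the log2 scale, at 0.815. Calb1 (0.953) was highest in replicate 4, at 31.5 FPKM against 28.7 to 28.9 FPKM in the others. On the log2 scale, Nrgn (0.879) and Calb1 (0.951) stayed above the limit.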

How the results depend on the processing

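The counts of 4 marker genes higher in hippocampus and 1 in hypothalamus held under every scaling, pseudocount, filter and fold tried and with loci summed. Without hippocampus replicate 4 or without hypothalamus replicate 3 the first count was 5, since C1ql2 was then called, at 1.35 and 1.43. With each library left out in turn, the difference of C1ql2 ranged from 0.878 to 1.43 and the median SD of the markers in hypothalamus from 0.0381 to 0.259. With FPKM as deposited, 8.64% of compared symbols were higher in hippocampus in place of 14.5%, the median difference was −0.21 in place of 0.05, and hippocampus took 33.8% of calls in place of 52.0%. The list genes called higher in hippocampus were 18, and 13 to 19 under the other scalings. The index had a mean of −1.73 without Prox1, −2.92 without C1ql2, −2.83 without Neurod6 and −1.82 without Wfs1. Of the 18 closest profiles, 6 were also among the closest by Pearson r and 7 without replicate 1 of both tissues. The cause of these changes was not tested. No paired analysis was possible because no result comes from a test and the labels do not say that a replicate number marks a shared animal.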

Other observations

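None of 6 meningeal genes was called in either direction, and Col1a2, found beside them, was listed at 0 throughout. The 7 found summed to 32.5 to 265.4 FPKM over hippocampus libraries and 77.4 to 413.5 FPKM over hypothalamus libraries.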
